A study of Mus musculus with 7 samples.

Results

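Lysosome and autophagy genes were followed in bulk liver RNA of 3 TgL and 4 TgLC mice. Members were chosen by a rule on gene symbols, with earlier results of these data known. The rule took the cathepsins (Cts and 1 letter), the lysosome-associated membrane proteins (Lamp) and the subunits of the vacuolar proton pump (Atp6v0 and Atp6v1). It also took the core autophagy genes (Atg, Ulk1, Ulk2, the LC3 and GABARAP genes, Becn1, Sqstm1 and Tfeb). This gave 67 of the 23594 genes in the table, namely 14 cathepsins, 3 LAMP genes, 21 V-ATPase genes and 29 autophagy genes. All mice received 1 intraperitoneal injection of tamoxifen (TAM), at 32 µg/g of body weight in females and 64 µg/g in males. TgL mice carry mouse Lif with eGFP at the Rosa26 locus, driven by CAG but held silent by a STOP cassette, and have no Cre. TgLC mice carry the same allele together with R26-CreERT2, a Cre that is made in all tissues and becomes active with TAM, so the cytokine LIF is switched on throughout the body and not in the liver alone. Mice of both sexes were used in the study. TgL mice were matched to TgLC mice in age, which was 8 weeks at injection. The sources used here give neither the sex of each sequenced mouse nor the time from injection to collection.

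Lysosomes are acidic organelles in which hydrolases break down proteins, lipids and sugars. The V-ATPase, made of a cytosolic V1 sector that splits ATP and a membrane V0 sector that carries protons, acidifies them, and cathepsins are their main proteases. In autophagy the ULK1 kinase complex starts a membrane cup, the ATG9 proteins bring lipid vesicles to it, and 2 ubiquitin-like conjugation systems attach LC3 and GABARAP proteins to the membrane, which closes around cargo and fuses with a lysosome. In liver this pathway feeds amino acids and fatty acids to metabolism during fasting, and the transcription factor TFEB is known to switch on many genes of both systems through a short sequence called the CLEAR element. The paper reports that TgLC mice ate less after TAM, and no mouse analysed here is labelled as pair-fed. The part of food intake in the results below was not tested.

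Values are normalized counts, that is reads per gene divided by 1 DESeq2 size factor per mouse, and mice are always given in the order TgL 1, 2 and 3 and TgLC 1, 2, 3 and 4. Each TgL liver had 9367681 to 11030699 reads, and each TgLC liver 11325974 to 12448961. Lif itself was listed at 0.894, 1.99 and 0 in TgL and 10, 12.3, 10.1 and 25.0 in TgLC mice, so every TgLC liver was above every TgL liver, with transgene and native reads counted together. TgLC 3 and 4 carry labels of another kind (beginning with YXL) than TgLC 1 and 2, whose numbers neighbour those of TgL 1 and 2. Both of them were above TgLC 1 and 2 for 27 of the 59 members tested and both below for 7, whereas over all genes tested the shares were 33.1% and 26.1%. Hepatocyte markers dominated all livers, with a summed level of 1095472 to 1145807 in TgL and 672840 to 818018 in TgLC mice, where 1 of the 5 rose and 2 fell. Of 13 macrophage and Kupffer cell markers, 1 rose (C1qb, log2 fold change 0.503, limma, adjusted p = 0.0456), and their summed level was 7767 to 10042 in TgL and 6552 to 10178 in TgLC livers. Neutrophil markers summed to 29.9 to 87.7 in TgL and 99.2 to 201.0 in TgLC livers, with 3 of the 4 tested higher and Ly6g at 0 or 1 read in every mouse. Cholangiocyte markers summed to 364 to 482 and 628 to 1887, with 1 of 4 tested higher, and stellate cell markers to 2677 to 3127 and 3025 to 6795, with 3 of 5 higher. Of 6 endothelial markers 1 rose and 1 fell, with sums of 3950 to 4137 and 2465 to 3874. Exocrine pancreas markers summed to 793 to 1269 in TgL and 42.0 to 56.7 in TgLC livers, with all 12 tested lower. T and NK cell markers had summed levels of 30.9 to 56.1 and 20.0 to 53.2, and B cell markers of 29.9 to 53.0 and 6.01 to 46.1. The part of these cell types in the results below was not tested, and in bulk RNA fewer cells of a type and less RNA per cell cannot be told apart.

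Of the 67 members, 59 had a mean of at least 10 normalized counts and were tested with limma, and 8 were not (Lamp3, Ctse, Ctsj, Ctsw, Atp6v0e2, Atp6v1b1, Atp6v1c2 and the pseudogene Atg4a-ps). At an adjusted p under 0.05 over all genes tested, 14 members rose in TgLC livers, 6 fell and 39 did not pass. The share called was 33.9% of the members tested and 31.2% of all 13145 genes tested. Higher calls made up 23.7% of the members and 16.2% of all genes, and lower calls 10.2% and 15% of them. At least 2-fold changes were called for 6 members (10.2%, against 14.2% of all genes). Mice of the groups did not overlap for 25 members (42.4%), and for 41.1% of all genes. The members as a whole were thus called about as often as other genes of these livers, and what follows concerns which of them changed.

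By class, 5 of 11 cathepsins tested rose and none fell by limma (0 at an unadjusted p under 0.05, 0 by edgeR with TMM or DESeq2 and 1 by edgeR with library totals), with a median log2 fold change of 0.48. Among 18 V-ATPase genes 4 rose and 1 fell (median 0.019), among 28 autophagy genes 5 rose and 5 fell (median 0.073), and 0 of 2 LAMP genes passed by limma (1 at an unadjusted p under 0.05, and 1 by edgeR with TMM, limma-voom or DESeq2). The median over all genes tested was 0.0018. By limma the share that rose was 45.5% of cathepsins, 22.2% of V-ATPase genes and 17.9% of autophagy genes, against 16.2% of all genes. The share that fell was 0%, 5.56% and 17.9%, against 15%. Scaling by library totals, without correction for the RNA make-up of the liver, moved the median of all genes to -0.30. With it 6 members rose and 16 fell by edgeR, whereas 8.95% of all genes rose and 32.5% fell. The cathepsin median stayed above 0 at 0.17, while the medians of the LAMP (-0.00075), V-ATPase (-0.30) and autophagy genes (-0.24) turned below it. However, only 1 of the 11 cathepsins rose with library totals and 1 fell, so the share that rose was near that of all genes (8.95%). Of 18 V-ATPase genes 2 rose and 5 fell with this scaling, and of 28 autophagy genes 3 rose and 10 fell. In both scalings Ctsl, Atp6v0a4, Atp6v1g1, Atg9b, Map1lc3b and Atg16l1 rose, and all 6 members that fell by limma also fell. The 10 members called lower with library totals and not by limma were Ctsf, Atp6v1a, Atp6v1b2, Atp6v1e1, Atp6v1h, Atg4b, Atg9a, Atg10, Atg14 and Sqstm1. Where no tool is named below, passing refers to limma.

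**Figure D1:**
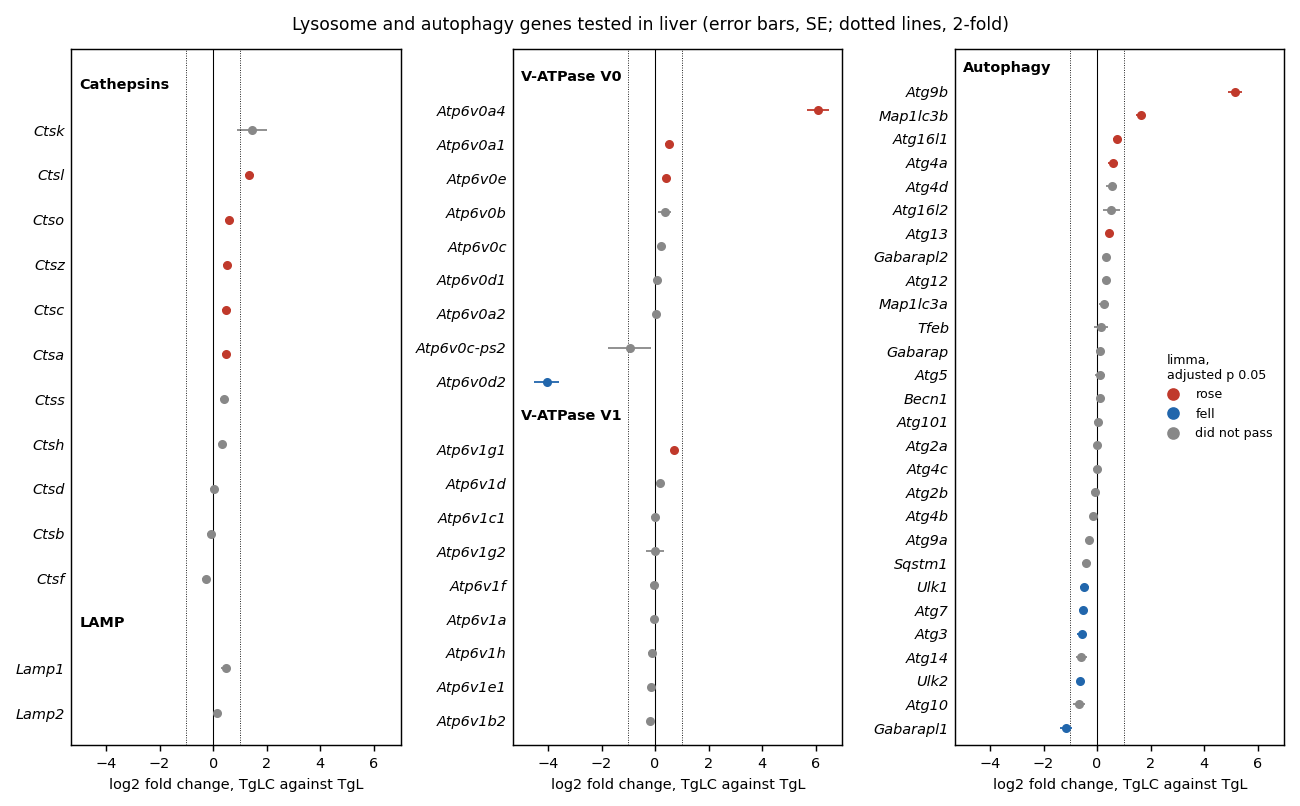
Log2 fold change of TgLC against TgL livers (x axis) for the 59 members tested, in 3 panels by class, with the standard error as bars and 2-fold changes as dotted lines. Atp6v0a4 and Atg9b lie above 5 and Atp6v0d2 lies at -4.06, while the V1 genes lie between -0.18 and 0.69.

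CLEAR elements are built on the palindrome TCACGTGA with a G before it and a C after it, and LIF signals through STAT3, which binds TTCNNNGAA, so these letters were looked for in the promoters of the members (250 bases before to 50 after the start in RefSeq, GRCm38.p6). A promoter entry was found for 51 of the 67 genes. The shares below are of genes, and the motifs are palindromes, so 1 pass covers both strands. None of the 51 held the whole 10 bases, which 0.370% of all 27025 genes in the table held. The inner 8 bases, TCACGTGA, were present in 6 of the 51 (11.8%) and in 1.12% of all genes. Of these 6, Ctsa and Atp6v0e rose, Atg3 fell, and Ctsd, Atp6v0d1 and Atp6v1a did not pass. The still shorter CACGTG, which lies within both, was found in 13 of the 51 (25.5%, against 8.09% of all genes). Of these 13, Ctsa, Atp6v0e and Ctsl rose, Atg3 and Atg7 fell, and 8 did not pass. TTCNNNGAA was found in 4 (7.84%, against 9.55%), namely in Ctsc, which rose, Gabarapl1, which fell, Gabarap, which did not pass, and Lamp3, which was not tested. A match is a description of letters and not of binding, and a gene can have starts other than the one in the table.

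The 7 stretches with TCACGTGA are shown because they join genes that rose, fell and did not pass. Each is 30 bases long, 5′ to 3′ on the strand of the gene, with the 8 bases in capitals. Those of Ctsa are at chr2:164833749-164833778 and chr2:164833766-164833795 (plus strand), that of Ctsd at chr7:142387908-142387937 (minus), that of Atp6v0d1 at chr8:105566050-105566079 (minus), that of Atp6v1a at chr16:44139373-44139402 (minus), that of Atg3 at chr16:45158746-45158775 (plus) and that of Atp6v0e at chr17:26676387-26676416 (plus).
Ctsa: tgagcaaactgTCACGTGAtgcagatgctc
Ctsa: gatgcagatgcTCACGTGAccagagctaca
Ctsd: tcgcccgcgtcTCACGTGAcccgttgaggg
Atp6v0d1: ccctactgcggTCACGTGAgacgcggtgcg
Atp6v1a: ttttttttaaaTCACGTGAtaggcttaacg
Atg3: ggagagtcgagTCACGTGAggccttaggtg
Atp6v0e: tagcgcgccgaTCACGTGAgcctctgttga
The motif begins at base -13 and +5 from the start in Ctsa, at -99 in Ctsd, -4 in Atp6v0d1, -132 in Atp6v1a, -72 in Atg3 and +3 in Atp6v0e. The 3 genes without a call had log2 fold changes of 0.017 (Ctsd), 0.073 (Atp6v0d1) and -0.056 (Atp6v1a).

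Among the cathepsins, Ctsl rose most of those that passed. It encodes cathepsin L, a cysteine endopeptidase of lysosomes, and was measured at 5062, 4813 and 4598 normalized counts in TgL and 13801, 11753, 9615 and 14734 in TgLC mice. All TgLC livers were well above all TgL livers, and the ratio of means was 2.59 (log2 fold change 1.35 ± 0.16 (SE), limma adjusted p = 0.000383). In the 4 mice with neighbouring numbers (TgL 1 and 2, TgLC 1 and 2) the log2 fold change was 1.37, and in the remaining 3 mice it was 1.37. Those 3 are TgL 3, whose number lies apart, and TgLC 3 and 4. They rest on 1 TgL mouse, and their labels do not join them as a group, here and below. Per kilobase of transcript, Ctsl was 9.88% to 10.9% of all cathepsin counts in TgL livers and 14.2% to 22.5% in TgLC livers, so the groups did not overlap, while Ctsb, a cysteine protease that also acts as an exopeptidase, had 21.1% to 22.9% and 12.3% to 17.1%. Summed over the 14 cathepsins, counts per kilobase were 7509 ± 74.5 (SD, n = 3) in TgL and 10246 ± 689 (SD, n = 4) in TgLC livers. The length used for Ctsl was that of its longest principal transcript, 6168 bases, against 1617 for Ctsh. With a shorter Ctsl transcript its share and these sums would be larger in both groups.

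Ctso, a cysteine protease of little known function, was at 672, 673 and 727 in TgL and 996, 872, 1079 and 1252 in TgLC mice (log2 fold change 0.59 ± 0.14 (SE), limma adjusted p = 0.0103). Ctsz, a carboxypeptidase, was at 1603, 1688 and 1441 in TgL and 2040, 1913, 2575 and 2625 in TgLC mice (log2 fold change 0.53 ± 0.14 (SE), limma adjusted p = 0.023). Ctsa, the serine carboxypeptidase that also protects β-galactosidase and neuraminidase in the lysosome, was at 1355, 1336 and 1247 in TgL and 1686, 1561, 2095 and 2006 in TgLC mice (log2 fold change 0.48 ± 0.13 (SE), limma adjusted p = 0.0228). In these 3 genes every TgLC liver was above every TgL liver. Ctsc, the dipeptidyl peptidase that activates serine proteases of immune cells, was at 2028, 1946 and 2467 in TgL and 2923, 2872, 3860 and 2495 in TgLC mice (log2 fold change 0.49 ± 0.16 (SE), limma adjusted p = 0.0481), where TgLC 4 exceeded TgL 3 by little. With library totals Ctso (0.29, edgeR, adjusted p = 0.11), Ctsz (0.22, 0.23), Ctsa (0.17, 0.299) and Ctsc (0.18, 0.396) kept their direction and did not pass. Calls of Ctsl and Ctso held in all 7 fits that left out 1 mouse. That of Ctsa was lost without any 1 of TgL 1, 2 and 3 and TgLC 4 (limma, adjusted p 0.0537 to 0.0745) and that of Ctsz without any 1 of the same mice (0.0525 to 0.0816). Ctsc lost its call without TgL 1, TgL 2, TgLC 1, TgLC 2 or TgLC 3 (0.0635 to 0.164), without the trend (0.0785) or the filter (0.0626), and by edgeR with DESeq2 size factors (0.0548). Ctsa also shares 495 exonic bases with Pltp on the opposite strand, and Pltp fell (log2 fold change -0.94, limma, adjusted p = 0.00582), while the strand setting of the counting is not given in the sources used here.

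The remaining cathepsins did not pass by limma. Ctsb was at 7804, 7414 and 8186 in TgL and 7971, 6880, 8912 and 6201 in TgLC mice (log2 fold change -0.071 ± 0.15 (SE), limma adjusted p = 0.743), and Ctsd, the aspartic protease of lysosomes, at 1579, 1715 and 1892 in TgL and 1589, 1622, 1750 and 2054 in TgLC mice (log2 fold change 0.017 ± 0.13 (SE), limma adjusted p = 0.934), so both had overlapping groups. Ctsd turned to -0.30 with library totals. Ctss, a cysteine protease of antigen-presenting cells, was at 436, 437 and 513 in TgL and 637, 756, 552 and 524 in TgLC mice (log2 fold change 0.41 ± 0.15 (SE), limma adjusted p = 0.066). All 4 TgLC livers were above the TgL livers for Ctss, TgLC 4 by little, and it did not pass by DESeq2 either (adjusted p = 0.0691). Ctss passed without TgLC 4 (0.48, limma, adjusted p = 0.0487), without TgLC 3 and 4 (0.59, 0.00999) and in the 4 mice with neighbouring numbers (0.67, 0.00392), whereas the other 3 mice gave 0.069 (0.808). Ctsh had a log2 fold change of 0.33 (limma, adjusted p = 0.122) and Ctsf of -0.27 (0.193), which passed with library totals (-0.61, edgeR, adjusted p = 0.00876). Ctsk, known from osteoclasts, was low at 4.47, 6.97 and 7.14 in TgL and 19.0, 32.8, 6.07 and 29.1 in TgLC mice (log2 fold change 1.46 ± 0.55 (SE), limma adjusted p = 0.075), and TgLC 3 lay among the TgL livers while the other 3 were above them. DESeq2 called it (1.82, adjusted p = 0.0227). Among cathepsins below the minimum for testing, Ctsj had no read in any TgL liver and 7.0, 10.2, 13.2 and 31.1 normalized counts in TgLC livers, at least 15.8-fold higher when TgL is set at 3 reads over the group, and DESeq2 called it without that minimum (adjusted p = 3.3e-05). Ctsj is known in mouse as a placental relative of Ctsl, and whether reads of that more abundant gene reached it was not tested. Ctse (2.0 to 19.4) and Ctsw (0.995 to 9.18) had overlapping groups.

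LAMP1 and LAMP2 are the most abundant glycoproteins of the lysosomal membrane. Lamp1 was at 4542, 4617 and 4231 in TgL and 5225, 5062, 7413 and 7407 in TgLC mice (log2 fold change 0.47 ± 0.17 (SE), limma adjusted p = 0.0633). The 4 TgLC livers lay above the TgL livers, with TgLC 3 and 4 well above TgLC 1 and 2. Lamp1 passed without TgLC 1 (0.55, limma, adjusted p = 0.0436) or without TgLC 2 (0.56, 0.0412), and by DESeq2 (adjusted p = 0.0339). It shares 249 exonic bases on the opposite strand with Grtp1, which fell (log2 fold change -0.72, limma, adjusted p = 0.0154). Lamp2 was at 7995, 6997 and 7282 in TgL and 8366, 8015, 9110 and 7325 in TgLC mice (log2 fold change 0.14 ± 0.13 (SE), limma adjusted p = 0.422), with overlapping groups, and turned to -0.17 with library totals. Lamp3 had at most 2 reads in any mouse.

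**Figure D2:**
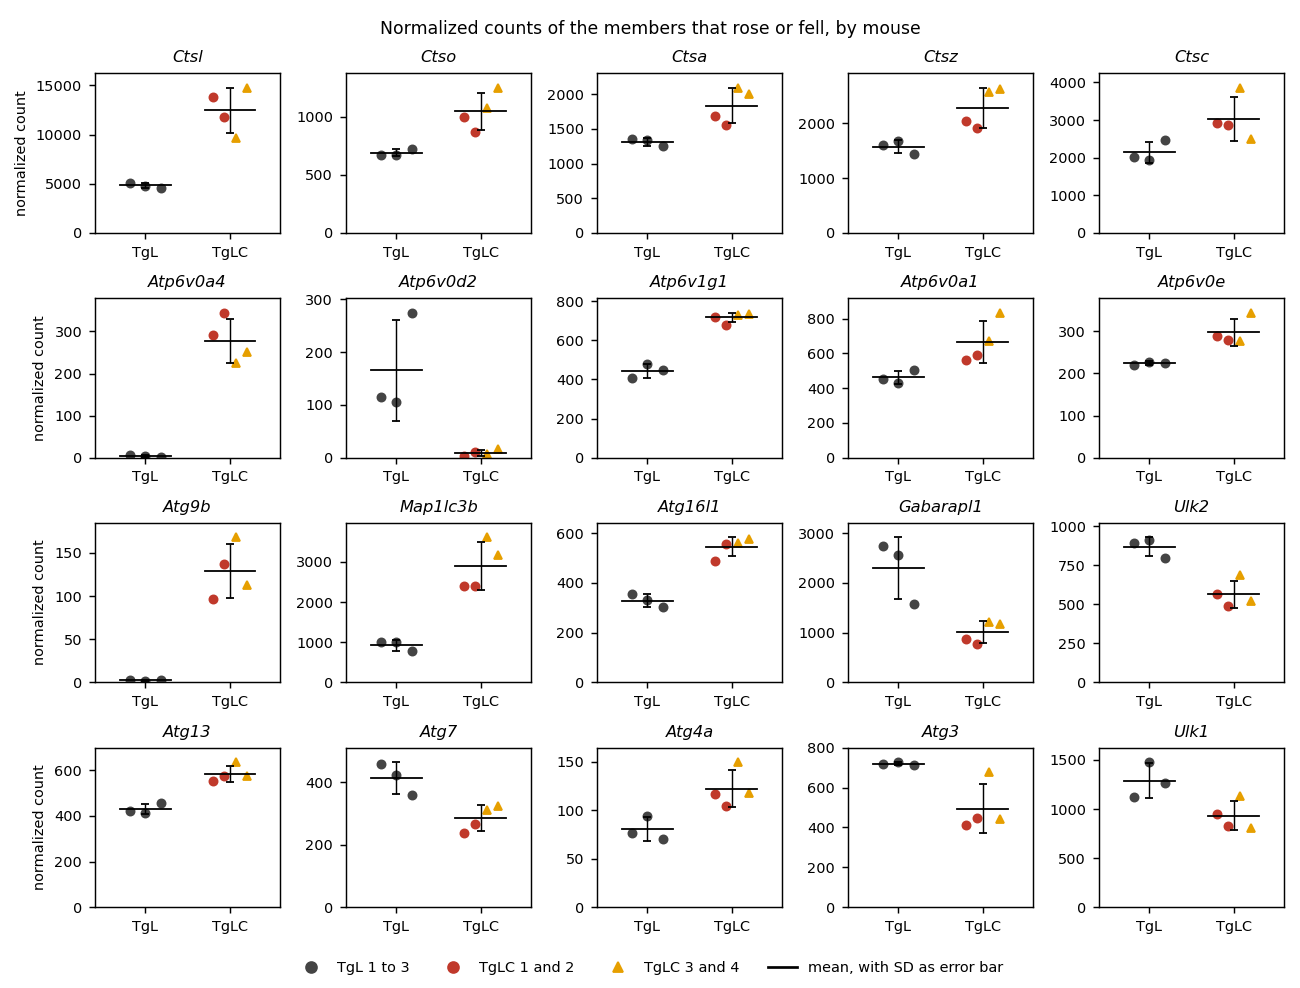
Normalized counts (y axis, from 0) of the 20 members that rose or fell, 1 panel per gene, with each mouse as a point, group means as lines and SD as error bars, n = 3 TgL and n = 4 TgLC. Groups are apart in every panel other than that of Ulk1, and triangles mark TgLC 3 and 4, which stand at 3611 and 3169 for Map1lc3b against 2412 and 2390 in TgLC 1 and 2.

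In the V-ATPase, both changes of at least 2-fold were in isoforms of V0 subunits. Of 9 V0 genes tested 3 rose and 1 fell (median log2 fold change 0.23), and of 9 V1 genes 1 rose and 0 fell by limma (median -0.025, with 0 lower at an unadjusted p under 0.05 and by edgeR with TMM or DESeq2, but 4 lower by edgeR with library totals). By limma 33.3% of V0 genes rose and 11.1% fell, and of V1 genes 11.1% and 0%. Over all genes the shares were 16.2% and 15%. The a subunit of V0 has 4 isoforms, of which a4 is known from acid-secreting cells of the kidney. Atp6v0a4, its gene, was at 7.15, 2.99 and 1.02 normalized counts in TgL and 292, 345, 225 and 250.4 in TgLC mice. It rose from at most 8 reads per liver to at least 222, and the groups were far apart (74.7-fold on the means, log2 fold change 6.09 ± 0.41 (SE), limma adjusted p = 1.7e-05). The log2 fold change was 5.80 in the 4 mice with neighbouring numbers and 6.88 in the other 3. Atp6v0a4 shares 259 exonic bases on the same strand with D630045J12Rik, which was at 82.3, 56.7 and 80.5 in TgL and 37.0, 61.4, 42.5 and 45.1 in TgLC mice.

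Atp6v0a1, the isoform found in most tissues, was at 453, 432 and 505 in TgL and 563, 592, 669.8 and 835 in TgLC mice (log2 fold change 0.51 ± 0.15 (SE), limma adjusted p = 0.0326), with every TgLC liver higher. Its call was lost without any 1 TgL mouse or without TgLC 3 or TgLC 4 (limma, adjusted p 0.0505 to 0.118), without both TgLC 3 and 4 (0.32, 0.0525), without the trend (0.0574), and with library totals (0.20, edgeR, adjusted p = 0.299). Atp6v0a2 was at 297, 305 and 280.4 in TgL and 315, 316, 287 and 279.5 in TgLC mice (log2 fold change 0.026 ± 0.11 (SE), limma adjusted p = 0.879), with overlapping groups. Tcirg1, which encodes the a3 isoform and falls outside the symbol rule, was at 537, 547 and 478 in TgL and 584, 643, 679 and 434 in TgLC mice (log2 fold change 0.15, limma, adjusted p = 0.519). Per kilobase, Atp6v0a4 made up 0.0918% to 0.622% of the counts of the 4 isoforms in TgL and 13.3% to 20.0% in TgLC livers. The sum of the 4 was 343 ± 6.23 (SD, n = 3) in TgL and 498 ± 22.3 (SD, n = 4) in TgLC livers.

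The opposite was seen in the d subunit, which joins V0 to the central stalk. Atp6v0d2, an isoform known from osteoclasts and macrophages, was at 114, 107 and 275 normalized counts in TgL and 4.0, 10.2, 6.07 and 16.0 in TgLC mice. TgL 3 had more than the other TgL livers, all TgLC livers were below the lowest of them, and the TgL mean was 18.2 times that of TgLC (log2 fold change -4.06 ± 0.48 (SE), limma adjusted p = 0.000337). The log2 fold change was -3.89 in the 4 mice with neighbouring numbers and -4.65 in the other 3. Atp6v0d1, the isoform of most tissues, was at 519, 519 and 479 in TgL and 449, 496, 624 and 573 in TgLC mice (log2 fold change 0.073 ± 0.13 (SE), limma adjusted p = 0.711), with overlapping groups and a value of -0.24 with library totals. Atp6v0d2 thus made up 11.6% to 26.9% of d subunit counts per kilobase in TgL livers and 0.568% to 1.76% in TgLC livers. Macrophage markers, given above, had overlapping sums and log2 fold changes from -0.53 to 0.69 (median -0.036), and the part of macrophages in the fall of Atp6v0d2 was not tested.

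Atp6v1g1, the G subunit of the V1 stator in most cells, was at 407, 478 and 449 in TgL and 720.0, 679.7, 729 and 736 in TgLC mice (log2 fold change 0.69 ± 0.11 (SE), limma adjusted p = 0.00145), and its groups were far apart. Atp6v0e, a small V0 subunit, was at 219, 228 and 225 in TgL and 290.0, 279, 276 and 345 in TgLC mice (log2 fold change 0.40 ± 0.12 (SE), limma adjusted p = 0.0342), with groups apart. Its call was lost without any 1 mouse other than TgLC 3 (limma, adjusted p 0.0502 to 0.117), without the filter on low values (0.0553) or the trend (0.0503), and with library totals (0.094, edgeR, adjusted p = 0.566). Atp6v1a, the subunit that splits ATP, was at 628, 676 and 625 in TgL and 682, 595, 593 and 606 in TgLC mice (log2 fold change -0.056 ± 0.11 (SE), limma adjusted p = 0.715), with overlapping groups, and passed with library totals (-0.37, edgeR, adjusted p = 0.0235). The other V1 genes tested lay between -0.18 (Atp6v1b2) and 0.17 (Atp6v1d). Of the remaining V0 genes, Atp6v0b had a log2 fold change of 0.36 (limma, adjusted p = 0.276) and Atp6v0c, which forms the proton-carrying ring, of 0.23 (0.168). The pseudogene Atp6v0c-ps2 was at 30.4, 32.8 and 19.4 in TgL and 39.0, 36.9, 3.04 and 6.01 in TgLC mice (log2 fold change -0.95 ± 0.79 (SE), limma adjusted p = 0.394). TgLC 1 and 2 were above the TgL livers for it and TgLC 3 and 4 below them, and its reads may be shared with near-identical copies. Atp6v0e2, Atp6v1b1 and Atp6v1c2 had at most 13.0, 1.79 and 3.01 normalized counts.

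Autophagy genes moved both ways, also within a family. ATG9 is the only membrane-spanning protein of the core set and moves lipids between membrane leaflets. Atg9b, of its 2 genes the one of narrow expression, was at 2.68, 1.99 and 3.06 normalized counts in TgL and 96.0, 137, 168 and 113 in TgLC mice. No TgL liver had more than 3 reads of it, no TgLC liver had fewer than 96, and the ratio of means was 49.9 (log2 fold change 5.16 ± 0.27 (SE), limma adjusted p = 4.5e-06). The log2 fold change was 5.12 in the 4 mice with neighbouring numbers and 5.10 in the other 3. Atg9a, the general isoform, was at 397, 398 and 380.3 in TgL and 247, 360.3, 345 and 333 in TgLC mice (log2 fold change -0.30 ± 0.15 (SE), limma adjusted p = 0.153), lower in every TgLC liver without passing by limma, and it passed with library totals (-0.60, edgeR, adjusted p = 0.00859). Per kilobase, Atg9b was 0.524% to 0.840% of ATG9 counts in TgL and 26.4% to 33.9% in TgLC livers, and the sum of both was 96.0 ± 2.32 (SD, n = 3) and 111 ± 19.0 (SD, n = 4). Atg9b shares 294 exonic bases on the opposite strand with Nos3, endothelial nitric oxide synthase. Nos3 was at 25.0, 18.9 and 22.4 in TgL and 60, 86.0, 97.1 and 69.1 in TgLC mice (log2 fold change 1.76 ± 0.22 (SE), limma adjusted p = 0.000519), and reads of the shared bases cannot be assigned to either gene without strand.

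LC3 and GABARAP proteins are small ubiquitin-like proteins joined to the lipids of the autophagosome. Map1lc3b, which encodes the LC3B used as the common marker of autophagosomes, was at 1019, 999 and 773 normalized counts in TgL and 2412, 2390, 3611 and 3169 in TgLC mice. Every TgLC liver had over 2 times the highest TgL value, and the ratio of means was 3.11 (log2 fold change 1.63 ± 0.18 (SE), limma adjusted p = 0.000235). Gabarapl1 went the other way at 2734, 2560 and 1576 normalized counts in TgL and 880.0, 782, 1222 and 1173 in TgLC mice. TgL 3 was the lowest TgL liver and still above the highest TgLC liver, and the TgL mean was 2.26 times that of TgLC (log2 fold change -1.16 ± 0.23 (SE), limma adjusted p = 0.00499). Gabarapl1 shares 570 exonic bases on the opposite strand with 1700101I11Rik, which was below the minimum for testing. For Map1lc3b the log2 fold change was 1.25 in the 4 mice with neighbouring numbers and 2.13 in the other 3, and for Gabarapl1 it was -1.67 and -0.40. The 3 other genes did not pass, with log2 fold changes of 0.27 (Map1lc3a), 0.11 (Gabarap) and 0.35 (Gabarapl2). Per kilobase, Map1lc3b was 12.4% to 12.7% of the 5 genes in TgL and 35.1% to 36.7% in TgLC livers, and Gabarapl1 was 36.0% to 46.9% and 16.2% to 18.9%. The sum of the 5 was 2928 ± 455 (SD, n = 3) and 3178 ± 614 (SD, n = 4), a difference within the SD of either group.

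**Figure D3:**
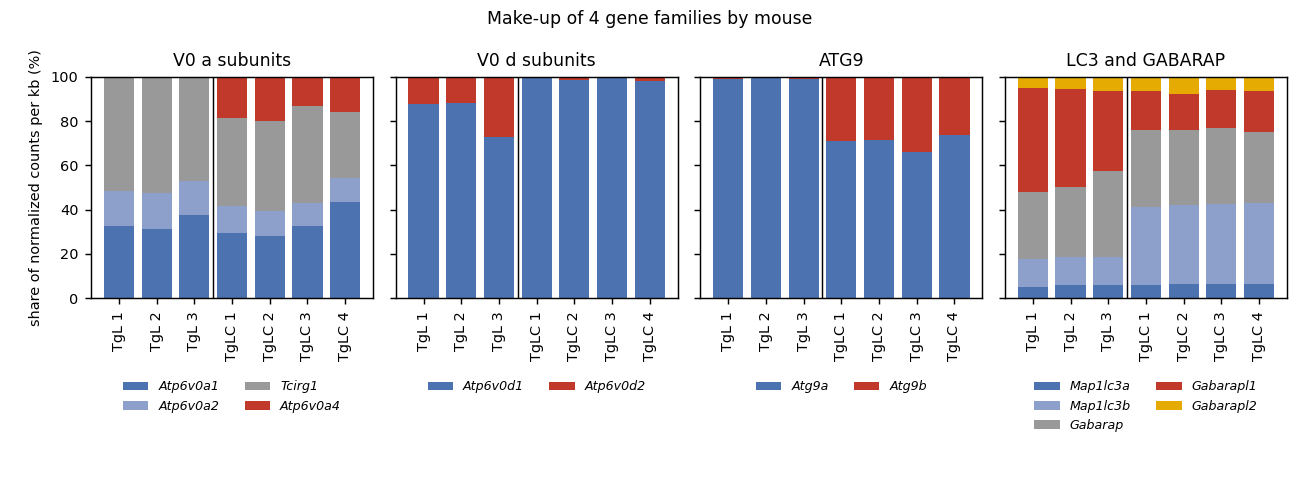
Share of normalized counts per kilobase (y axis, %) taken by each gene of the V0 a subunits, the V0 d subunits, ATG9 and the LC3 and GABARAP genes, with 1 bar per mouse and a line between TgL and TgLC. In every TgLC liver Atp6v0a4 is at least 13.3% of a subunit counts and Map1lc3b at least 35.1% of LC3 and GABARAP counts.

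Promoters are shown for 4 of the 6 members with a called change of at least 2-fold, as the stretch just before the start. Atp6v0d2 has no entry in the table, and for Ctsl the start in the table lies upstream of that of most annotated transcripts. Each is 250 bases, 5′ to 3′ on the strand of the gene, in RefSeq GRCm38.p6. Atp6v0a4 is at chr6:38124587-38124836 (minus), Atg9b at chr5:24392144-24392393 (minus), Map1lc3b at chr8:121590188-121590437 (plus) and Gabarapl1 at chr6:129532942-129533191 (plus). Capitals mark TTCNNNGAA or CACGTG.
Atp6v0a4: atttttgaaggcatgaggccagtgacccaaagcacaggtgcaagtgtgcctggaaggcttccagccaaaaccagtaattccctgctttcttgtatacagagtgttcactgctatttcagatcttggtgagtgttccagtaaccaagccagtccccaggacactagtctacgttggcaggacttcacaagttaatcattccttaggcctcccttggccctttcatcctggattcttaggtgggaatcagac
Atg9b: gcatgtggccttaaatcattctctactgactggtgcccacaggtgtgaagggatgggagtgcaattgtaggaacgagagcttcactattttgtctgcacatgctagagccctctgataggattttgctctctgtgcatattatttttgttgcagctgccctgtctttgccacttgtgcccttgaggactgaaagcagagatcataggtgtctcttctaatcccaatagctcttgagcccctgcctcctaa
Map1lc3b: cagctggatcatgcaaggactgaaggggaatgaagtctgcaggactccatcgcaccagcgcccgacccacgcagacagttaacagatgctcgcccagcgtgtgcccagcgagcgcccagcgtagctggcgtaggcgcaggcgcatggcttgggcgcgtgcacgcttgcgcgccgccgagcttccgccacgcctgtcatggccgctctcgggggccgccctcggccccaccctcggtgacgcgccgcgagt
Gabarapl1: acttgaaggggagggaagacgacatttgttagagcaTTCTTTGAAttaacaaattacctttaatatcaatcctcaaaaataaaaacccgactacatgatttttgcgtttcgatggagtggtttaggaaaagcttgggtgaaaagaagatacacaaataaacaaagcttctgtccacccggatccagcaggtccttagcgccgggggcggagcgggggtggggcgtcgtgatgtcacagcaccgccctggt
Capitals appear only in Gabarapl1, the gene of the 4 that fell. Neither motif was found in this window of the 3 genes shown that rose. Ctsl, which also rose and is not shown, holds CACGTG from base -236 of its entry.

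The ULK1 complex starts autophagy under the control of mTORC1 and AMPK. Ulk2 was at 889.7, 914 and 798 in TgL and 566, 487, 684 and 521 in TgLC mice (log2 fold change -0.63 ± 0.14 (SE), limma adjusted p = 0.00831), lower in every TgLC liver. Ulk1 was at 1120, 1478 and 1268 in TgL and 952, 831, 1135 and 809 in TgLC mice (log2 fold change -0.47 ± 0.15 (SE), limma adjusted p = 0.0436), where TgLC 3 exceeded TgL 1. Leaving out any 1 mouse other than TgLC 3 ended the call of Ulk1 (limma, adjusted p 0.0558 to 0.168), as did a fit without the intensity trend (0.0747) or without the filter (0.0542). Atg13, the scaffold of the same complex, rose at 423, 411 and 455 in TgL and 554, 576, 635 and 573 in TgLC mice (log2 fold change 0.44 ± 0.11 (SE), limma adjusted p = 0.0125), with groups apart. Without TgL 1 (adjusted p = 0.0581) or TgL 2 (0.0592), and with library totals (0.13, edgeR, 0.332), it did not pass. Atg101, its partner, had a log2 fold change of 0.038 (limma, adjusted p = 0.863).

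Atg7 and Atg3 encode the E1 and E2 enzymes that conjugate LC3 and GABARAP to lipid, and both fell. Atg7 was at 459.6, 424 and 359.9 in TgL and 237, 267, 313 and 325 in TgLC mice (log2 fold change -0.54 ± 0.15 (SE), limma adjusted p = 0.024). Atg3 was at 718, 728 and 714 in TgL and 412, 446, 676 and 443 in TgLC mice (log2 fold change -0.57 ± 0.17 (SE), limma adjusted p = 0.0325), where the TgL livers lay close together and TgLC 3 was far above the other TgLC livers. The call of Atg7 was lost without TgL 1, TgL 2 or TgLC 2 (limma, adjusted p 0.0548 to 0.107), and that of Atg3 without any 1 mouse other than TgLC 3 (0.0647 to 0.0980) or without the trend (0.0573). Atg16l1, the scaffold that directs lipidation to the membrane, rose at 354, 329 and 304 in TgL and 490.0, 555, 559.6 and 577 in TgLC mice (log2 fold change 0.73 ± 0.11 (SE), limma adjusted p = 0.00163), with groups apart. Atg4a, a protease that trims LC3 and GABARAP proteins before and after lipidation, rose at 76.9, 94.6 and 70.4 in TgL and 117, 104, 149.8 and 118 in TgLC mice (log2 fold change 0.59 ± 0.18 (SE), limma adjusted p = 0.0307), and did not pass without TgL 1, TgL 3, TgLC 3 or TgLC 4 (limma, adjusted p 0.0552 to 0.104) or with library totals (0.28, edgeR, adjusted p = 0.206). Its log2 fold change was 0.37 in the 4 mice with neighbouring numbers (limma, adjusted p = 0.142), 0.46 without TgLC 3 and 4 (0.0844) and 0.91 in the 3 mice outside the numbers (0.122). Its relatives Atg4b, Atg4c and Atg4d had log2 fold changes of -0.15, 0.0052 and 0.54 and did not pass by limma, and Atg4b passed with library totals (-0.46, edgeR, adjusted p = 0.0148). Atg5, which is joined to ATG12, was at 445, 393 and 472 in TgL and 390.0, 390.0, 599 and 536 in TgLC mice (log2 fold change 0.11 ± 0.18 (SE), limma adjusted p = 0.668), and Atg12 and Atg10, the latter the E2 of that pair, had values of 0.32 and -0.67 (limma, adjusted p = 0.0842 and 0.0578).

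Becn1, a subunit of the lipid kinase complex that marks the forming membrane, was at 372, 363 and 314 in TgL and 365, 391, 386 and 363 in TgLC mice (log2 fold change 0.11 ± 0.11 (SE), limma adjusted p = 0.497). Its partner Atg14 was at 332, 243 and 188 in TgL and 137, 169, 205 and 151 in TgLC mice (log2 fold change -0.59 ± 0.21 (SE), limma adjusted p = 0.0626), where TgLC 3 exceeded TgL 3. Atg14 passed by DESeq2 (-0.62, adjusted p = 0.0469) and with library totals (-0.93, edgeR, adjusted p = 0.00573). Sqstm1, which encodes the cargo receptor p62, was at 3460, 3308 and 3663 in TgL and 2446, 1967, 3020 and 3273 in TgLC mice (log2 fold change -0.40 ± 0.18 (SE), limma adjusted p = 0.112). All TgLC livers were below the TgL livers for Sqstm1, TgLC 4 by little, and with library totals it passed (-0.70, edgeR, adjusted p = 0.00882). It also passed in the 4 mice with neighbouring numbers (-0.62, limma, adjusted p = 0.00679) and without TgLC 3 and 4 (-0.66, 0.00479), whereas the other 3 mice gave -0.22 (0.475). Sqstm1 shares 580 exonic bases on the opposite strand with Mrnip, which fell (log2 fold change -1.94, limma, adjusted p = 0.0172). Tfeb was at 65.3, 84.6 and 55.1 in TgL and 52.0, 71.7, 99.2 and 83.1 in TgLC mice (log2 fold change 0.15 ± 0.25 (SE), limma adjusted p = 0.686), with overlapping groups. With library totals Atg5 (-0.19), Becn1 (-0.21) and Tfeb (-0.16) turned below 0. The remaining autophagy genes, Atg2a, Atg2b and Atg16l2, had log2 fold changes of 0.0089, -0.092 and 0.53, and none passed.

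**Figure D4:**
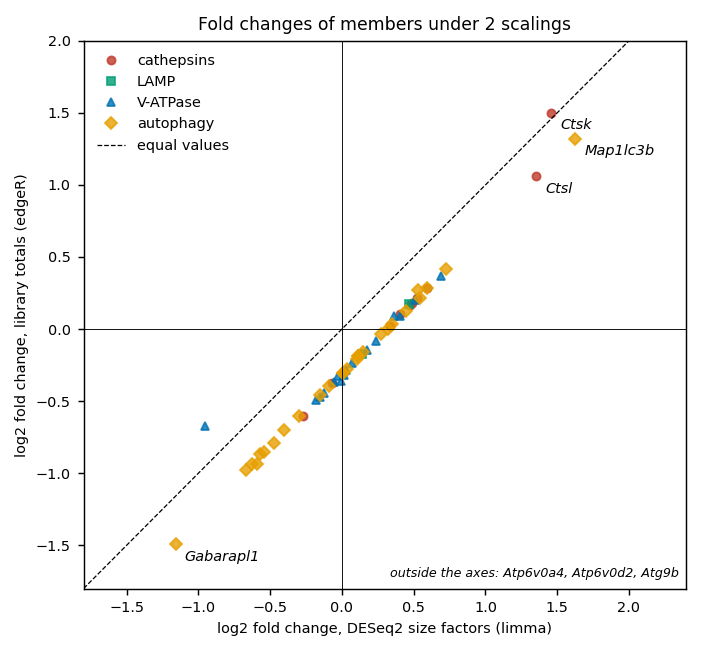
Log2 fold change of each member tested with DESeq2 size factors (x axis, limma) and with library totals (y axis, edgeR), with the classes as symbols and equal values as a dashed line. Points lie below the line by about the shift of all genes (-0.30), so that genes near 0 on the x axis, such as Ctsd and Becn1, turn below 0 on the y axis, while Ctsl, Map1lc3b and Gabarapl1 keep their sides. Atp6v0c-ps2, at -0.95 and -0.67, and Ctsk, at 1.46 and 1.499, lie above the line. Atp6v0a4, Atp6v0d2 and Atg9b fall outside the axes and are named there without points, Atg9b being at 5.16 and 5.26.

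Other genes of the same pathways, from lists written by hand outside the symbol rule, also moved both ways. Lysosomal hydrolases and their cofactors had 10 genes that rose and 4 that fell among 38 tested (26.3% and 10.5%, against 16.2% and 15% of all genes, median log2 fold change 0.13). With library totals 6 of the 38 rose and 9 fell by edgeR (median -0.18), where 8.95% of all genes rose and 32.5% fell. Lgmn, the asparaginyl endopeptidase that processes cathepsins, was at 718, 665 and 812 in TgL and 2101, 1977, 1761 and 2460 in TgLC mice (log2 fold change 1.497 ± 0.14 (SE), limma adjusted p = 9.3e-05). Fuca1, a fucosidase, and Smpd1, acid sphingomyelinase, rose by 1.02 and 1.004 (limma, adjusted p = 0.000341 and 0.000393). In the other direction, Gm2a, the activator of ganglioside breakdown, was at -1.15 (0.00031), Lipa, the acid lipase of lysosomes, at -0.995 (0.000895) and Ids, a sulfatase, at -0.52 (0.0135). Lipa had 2614, 2657 and 3310 in TgL and 1302, 1306, 1698 and 1431 in TgLC mice, so its groups were apart. Lysosomal membrane and transport genes had 4 higher and 2 lower of 28 (14.3% and 7.14%, median 0.040), with Cd63, a tetraspanin, at 34.0, 23.9 and 18.4 in TgL and 250, 180.2, 85.0 and 268 in TgLC mice (log2 fold change 2.81 ± 0.39 (SE), limma adjusted p = 0.00084). Tmem9b rose by 0.79 (limma, adjusted p = 0.00219) and Ostm1, partner of the lysosomal chloride exchanger, by 0.57 (0.0119), whereas Npc1, the cholesterol exporter, was at -0.73 (0.012) and Igf2r, the receptor that delivers hydrolases, at -0.51 (0.0399). V-ATPase genes outside the rule had 1 higher of 11 and 0 lower by limma (9.09% and 0%, against 16.2% and 15% of all genes). The higher gene was Ncoa7 (1.23, limma, adjusted p = 0.00514). Of 11 cathepsin inhibitors listed only 5 were tested, of which 3 rose and 1 fell (60% and 20%, against 16.2% and 15% of all genes). Those that rose were Serpina3g (2.26, limma, adjusted p = 0.000476), Serpinb6a (0.66, 0.00391) and Cstb (0.53, 0.00789), and Serpinb1a fell (-3.21, 0.000376).

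At the lysosome surface the mTORC1 kinase reads nutrients and in turn restrains TFEB and the ULK1 complex. Among 32 TFEB relatives and mTORC1 signaling genes, 3 rose and 9 fell (median log2 fold change -0.19, and 9.38% and 28.1% against 16.2% and 15% of all genes). Fnip2, Sesn3 and Deptor, which act on mTORC1 or its GTPases, were at -1.79, -1.53 and -1.29 (limma, adjusted p = 0.000212, 0.000175 and 0.000144). Sesn3, a sestrin that restrains mTORC1, was measured at 558, 532 and 684 in TgL and 215, 234, 159.9 and 207 in TgLC mice. Ddit4, an inhibitor of mTORC1 induced by stress, rose at 47.4, 90.6 and 436 in TgL and 1288, 696, 746 and 749 in TgLC mice (log2 fold change 2.76 ± 0.62 (SE), limma adjusted p = 0.0097), and its TgL livers differed widely. Rraga and Sesn2 rose by 0.57 and 0.58 (limma, adjusted p = 0.00611 and 0.0307).

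Autophagy initiation and membrane genes outside the rule had 5 higher and 3 lower of 24 (20.8% and 12.5%, median 0.031). Wipi1, which binds the lipid made by the Becn1 complex, was at 152, 174 and 171 in TgL and 542, 575, 342 and 728 in TgLC mice (log2 fold change 1.67 ± 0.23 (SE), limma adjusted p = 0.000767). Vmp1, an endoplasmic reticulum scramblase, and Tecpr2 rose by 0.90 and 1.01 (limma, adjusted p = 0.000651 and 0.0045), while Dapk1, a kinase that acts on Becn1, Pik3c3, the lipid kinase itself, and Rubcn, its inhibitor, were at -1.45, -0.45 and -0.46 (0.000965, 0.022 and 0.0369). In the fusion list 1 of 21 (4.76%) rose, Mon1a (0.66, 0.0055), and 2 (9.52%) fell, Arl8b (-0.47, 0.0143) and Snap29 (-0.49, 0.03). Of 26 selective autophagy receptors and partners 2 rose and 4 fell (7.69% and 15.4%, median -0.14). Ncoa4, the ferritin receptor, and Retreg1, a receptor for endoplasmic reticulum, rose by 0.53 and 0.72 (limma, adjusted p = 0.0137 and 0.0147). Nfe2l2, the NRF2 factor that p62 regulates through KEAP1, was at -0.92 (0.00112), Nipsnap1 at -1.06 (0.00184) and Optn at -0.54 (0.00723). Over the 8 lists 29 of 185 genes tested rose and 25 fell with DESeq2 size factors (15.7% and 13.5%, against 16.2% and 15% of all genes). With library totals 16 rose and 65 fell (8.65% and 35.1%, against 8.95% and 32.5%), so that the lists together were called at about the rate of all genes under both scalings.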

How the data were processed

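Liver RNA of 3 TgL and 4 TgLC mice was analysed. By the methods and the submitters' processing notes, the authors filtered reads with fastp, mapped them with HISAT2 2.0.5, counted them with featureCounts 1.5.0-p3 and normalized with DESeq2 1.20.0. The values deposited by the authors are thus a normalized signal, counts divided by 1 size factor per mouse, for 23594 gene identifiers, of which 22679 had a GENCODE symbol. The sources used here do not give the build, annotation or strand setting. Reads were recovered by dividing by the value of 1 read (100% whole within 1e-06).

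The 13145 genes whose mean reached 10 normalized counts were fitted with limma 3.58.1 (R 4.3.3) on log2(normalized count + 1), with genotype alone in the model, empirical Bayes and an intensity trend. Fold changes are on this scale, which understates those of low genes. P values were adjusted after Benjamini and Hochberg over all genes tested, and the groups are too small for an exact permutation test of single genes (smallest two-sided p 0.0571). Alternatives were edgeR 4.0.16 (TMM, DESeq2 size factors or library totals), DESeq2 1.42.0, limma-voom, other pseudocounts and filters, no trend, leaving out each mouse, and subsets of mice by label. Each method was tested on simulated data. There limma tested 13144 genes, recovered 63 of 100 changed by 1 on the log2 scale and 100 of 100 changed by 2, and called 13 unchanged genes. The changed genes were drawn from genes with means well above the minimum for testing. They were also a far smaller share than the 31.2% of all genes called in the livers. These rates need not hold for the members, where changes of 2-fold and less can go uncalled. Counts per kilobase used the longest principal transcript in GENCODE M21, which also gave exonic overlaps of at least 200 bases. Such overlaps were found for 12 members, also for Becn1 (3104 bases with Cntd1), Ctsb (774 with Fdft1), Atg4d (1405 with Kri1) and Atg2b (383 with Gskip).

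Members and lists were chosen with earlier results of these data known. Named were, by smallest adjusted p, up to 8 risers and 8 fallers per class, a set of key members, and up to 3 and 3 per outside list, and other members are given by value. Ctsj, Ctsk, Lamp3, Atp6v0c-ps2, Tcirg1, C1qb, Ly6g and the genes that overlap members were named after their values were seen. Labels do not say that mice came from separate litters or days, so p values measure the spread between these mice.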

Additional observations from a re-analysis of the deposited data

Results flagged for a closer look

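In 4 members 1 TgLC liver stood far from the other 3 of its group, by a gap test that flags about 1 in 20 groups by chance, and 67 members were looked at. Atp6v1a was at 682 in TgLC 1, the next value being 606. Atg3 was at 676 in TgLC 3, the next being 446. Ctse was at 19.4 in TgLC 2 and at most 3.04 in the other TgLC livers, and Atp6v1b1 was at 1.02 in TgLC 2, a single read, and 0 in the other 3. Of these genes Atg3 had passed the test between genotypes, and its log2 fold change without TgLC 3 was -0.73 (limma, adjusted p = 0.00116).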

How the results depend on the processing

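All 20 called members kept their direction under all 20 alternatives, and 4 of them (Atp6v0a4, Atp6v0d2, Atg9b and Map1lc3b) passed in each. Called members numbered 20 at first and 11 to 21 with 1 mouse left out, while calls over all genes numbered 4104 and 2586 to 4119. In the 4 mice with neighbouring numbers 26 members were called, and 5087 of all 13252 genes tested. The other 3 mice are 1 TgL and 2 TgLC mice, where the lone TgL mouse is assumed to vary as the TgLC mice do. Numbers called in those 3 mice are not given. Cathepsins called numbered 5, then 2 with library totals, 8 in the 4 mice with neighbouring numbers, and 3 to 5 with 1 mouse left out. LAMP genes called numbered 0, then 1 with edgeR and TMM, DESeq2 or limma-voom, and 0 to 1 with 1 mouse left out. V-ATPase genes called numbered 5, then 3 without the trend and 3 to 4 with 1 mouse left out. Autophagy genes called numbered 10, then 5 to 12 with 1 mouse left out, and genes of the outside lists 54, then 37 to 54. Library totals turned Lamp2 (-0.17), Atp6v0d1 (-0.24), Atg5 (-0.19), Becn1 (-0.21), Tfeb (-0.16) and Ctsd (-0.30) below 0. In the 4 mice with neighbouring numbers Atp6v0d1 (-0.14), Atg5 (-0.10), Tfeb (-0.28) and Ctsd (-0.0355) turned, and without TgLC 3 and 4 they were at -0.097, -0.16, -0.14 and -0.10. With 1 mouse left out the ranges were -0.0043 to 0.15 for Atp6v0d1, -0.0066 to 0.20 for Atg5, -0.16 to 0.015 for Ctsb and -0.061 to 0.084 for Ctsd. None of these 7 genes was called, and the cause was not tested. No paired analysis was possible because mouse labels give no number that TgL and TgLC mice share.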
